A study of Mus musculus with 15 samples.

Results

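Colon cancer organoid lines grown from second-round liver metastases (Met2, 3 lines) were compared with lines grown from first-round liver metastases (Met1, 3 lines), over every accessible region of the series' table. The 6 libraries were taken from 15 in the series by their sample titles, and the table holds 43020 regions, of which 39952 (92.9%) held enough counts to be tested. All lines carry the genotype labelled AKP, and all recipient mice were immunocompetent C57Bl6 animals. Met1 lines came from the first round of transplantation into the colon, and Met2 lines came from the second round, in which organoids of liver metastases had been placed into the colon again. Lines of third-round metastases (Met3) and of primary colon tumours of rounds 2 and 3 (Primary2, Primary3), 3 of each, are set beside them; the study made the primary lines as controls. Which line descended from which, whether lines came from separate mice, how that genotype was made and the age of the animals are not stated in the sources used. A p-value here therefore reflects the variation of these particular lines, which may be partly technical.

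Accessible regions are stretches of DNA that nucleosomes leave open to proteins, mostly promoters and enhancers. In ATAC-seq a transposase cuts such DNA preferentially, and the number of reads in a region rises with how open it is over the cells of the sample. Enhancers differ between cell states far more than promoters do, and serial transplantation of metastases is a classical way to select tumour cells that colonise an organ. In a bulk sample, fewer cells with a region open and a less open region in every cell cannot be told apart. Regions are given by the names and mm9 coordinates of the deposited table. They were not assigned to genes, and the labelled cell type was not checked against marker genes, because no mm9 annotation was used here.

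Library totals ran from 790233 counts (Met1 replicate 1) to 3342414 (Met1 replicate 3), and the median region held 13 to 43 counts in these 6 libraries. The lines compared here varied most. The biological coefficient of variation, a measure of relative spread among the lines of a group, was 0.446 in Met2 and 0.377 in Met1, against 0.249 in Primary2, 0.274 in Met3 and 0.336 in Primary3. Met2 replicate 1 stood apart from its group. Across regions its log2 signal correlated at 0.743 and 0.692 with Met2 replicates 2 and 3, which correlated at 0.844 with each other and at 0.84 to 0.908 with the 3 Met3 lines. Met2 replicate 1 correlated at 0.691 to 0.714 with the Met3 lines and at 0.638, 0.742 and 0.748 with Met1 replicates 1 to 3. In Met1, replicate 1 correlated at 0.723 and 0.719 with replicates 2 and 3, which correlated at 0.897 with each other. The main counts at called regions are given with and without Met2 replicate 1.

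Regions that gained signal in Met2 outnumbered those that lost it. Of 39952 tested regions, 1417 (3.55%) changed between the groups at an adjusted p under 0.05 (edgeR quasi-likelihood test on all 15 libraries). Higher signal in Met2 was found at 1054 regions (2.64%) and lower signal at 363 (0.909%). The median log2 fold change was 1.93 over the higher regions (quartiles 1.39 and 2.6) and -2.13 over the lower ones (-2.59 and -1.71), against -0.0012 over all tested regions. Among called regions, differences of at least 4-fold were found at 496 that gained signal and at 208 that lost it. Of all 39952 tested regions, called or not, 1316 differed at least 4-fold in either direction. Every Met2 line lay above every Met1 line at 917 of the 1054 (87.0%), which held for 8.58% of all tested regions, and below at 347 of the 363 (95.6%), against 8.65%. This lack of overlap follows in part from the call itself. Scaling by total counts moved the median of all regions to -0.09 and gave 817 higher and 399 lower.

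The number of regions called depended on how the spread among lines was estimated. The estimate shared by all groups draws on groups that vary less than Met1 and Met2, and p-values from it are smaller than the lines of this contrast alone give. Lines were also simulated with the spread of each group, the same for all its regions, and with changes planted at regions of at least median signal. Real regions can differ in spread, and no simulated line stood apart from its group as Met2 replicate 1 did. In that setting this fit made a larger share of false calls for this contrast than its threshold allows. Its 1417 calls and its adjusted p-values are therefore to be read as too generous. With a variance weight for each group (limma voom), 747 regions (1.87%) were called, 577 higher (1.44%) and 170 lower (0.426%), and 668 of these were among the 1417. A fit of only Met1 and Met2 called 58 (0.162%), 43 higher (0.12%) and 15 lower (0.0419%), all of them among the 1417. It also has fewer libraries from which to estimate the spread. DESeq2 on 15 libraries called 2021 (5.06%), 1449 higher (3.63%) and 572 lower (1.43%). Without Met2 replicate 1 the 15-library design called 2475 (6.02%), 1766 higher (4.3%) and 709 lower (1.72%), and 1195 of the 1417 were kept. Without Met1 replicate 2, Met1 replicate 3 or Met2 replicate 3 it called 561, 475 and 727. In total, 290 regions (0.726%), 240 higher and 50 lower, were called with all lines and again each time 1 of the 6 lines was left out. The larger number of higher regions was seen in each of these fits.

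**Figure D1:**
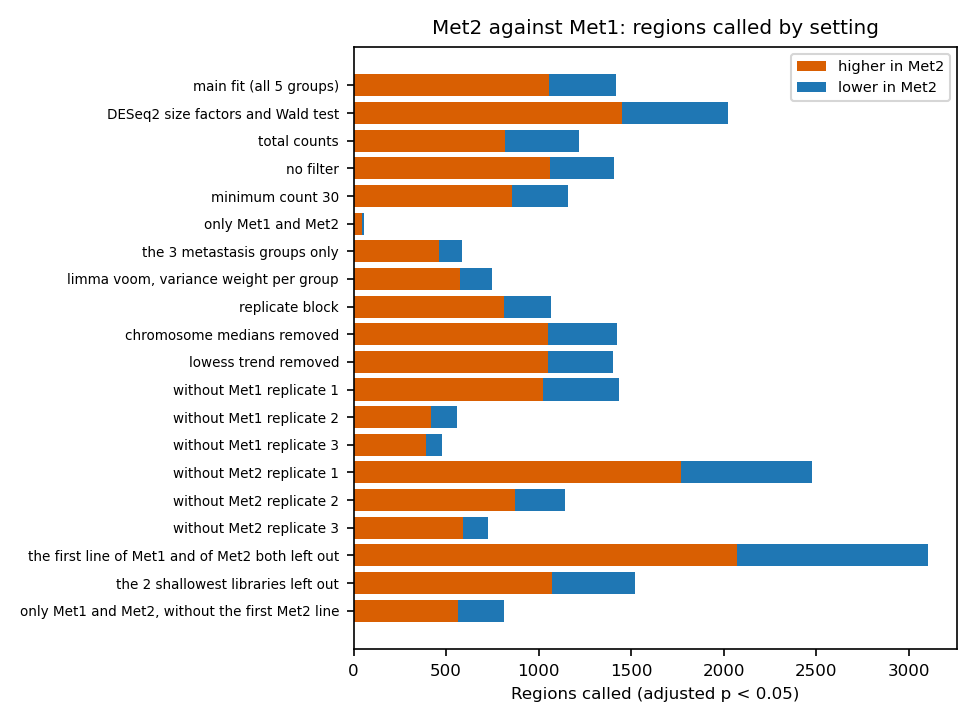
Number of regions called between Met2 and Met1 (x axis, adjusted p under 0.05) under each setting (y axis), split into regions higher and lower in Met2. Higher regions outnumber lower ones in every bar, and the total runs from 58 with only Met1 and Met2 in the fit to 3104 with the first line of both groups left out.

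Regions are described singly where they were among the 290, had at least the median signal and had every Met2 line above, or below, every Met1 line. Of 189 such higher and 28 such lower regions, the 10 with the largest fold in each direction are named. They were chosen for their size in these lines, so their folds tend to be overestimates. Signal is given as CPM, that is counts scaled to library size, here after TMM scaling.

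The largest increase was at peak_18414 (chromosome 12, 9862477 to 9863284). Its signal was 6.79, 3.17 and 2.98 CPM in Met1 replicates 1 to 3 and 59.8, 78.0 and 115 CPM in Met2 replicates 1 to 3. Met2 exceeded Met1 by 4.49 ± 0.51 on the log2 scale (SE, edgeR adjusted p = 5.15e-05), and the fit of only these groups called it as well (adjusted p = 0.0187). Primary lines were open here too, at 32.2 ± 18.5 CPM in Primary2 and 48.0 ± 27.0 in Primary3 (SD, n = 3), and all 3 Met1 lines lay below every other line.

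At peak_1052 (chromosome 1, 43825079 to 43826581) the Met1 lines likewise stood alone. They held 6.79, 10.5 and 12.8 CPM, against 113, 137 and 51.7 CPM in the Met2 lines, a difference of 3.24 ± 0.33 on the log2 scale (edgeR adjusted p = 1.44e-05). Primary2 held 89.0 ± 15.8 CPM and Primary3 76.1 ± 21.9 (SD, n = 3), close to Met2, and the difference of Met2 from Primary2 was 0.18 on the log2 scale (edgeR adjusted p = 0.774). Similarly, peak_69673 (chromosome 4, 147359438 to 147360129) stood at 11.3, 3.49 and 11 CPM in Met1 and at 75.7, 76.7 and 81.8 CPM in Met2, a difference of 3.26 ± 0.36 on the log2 scale (edgeR adjusted p = 5.04e-05). Here Primary3 reached 72.7 ± 20.9 CPM and Met3 82.9 ± 7.85 (SD, n = 3). The 3 Met2 lines lay close together, and Primary2 was intermediate at 40.9 ± 15.4 CPM.

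A second kind of increase was open in the later metastases and low in every other group. At peak_30781 (chromosome 15, 16905579 to 16906277) the Met1 lines held 3.4, 4.76 and 2.39 CPM and the Met2 lines 51.8, 41.2 and 44.7 CPM, with a log2 difference of 3.68 ± 0.41 (edgeR adjusted p = 5.04e-05). Primary lines ranged from 5.79 to 14.5 CPM, and Met3 lines from 43.5 to 55.7 CPM, so that the later metastasis lines and all others did not overlap.

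The same pattern was seen at peak_6111 (chromosome 10, 4609812 to 4610793). Met1 lines held 6.79, 2.85 and 3.88 CPM, Met2 lines 28.6, 54.7 and 36.3 CPM, and Primary2 and Primary3 had means of 5.23 ± 3.38 and 7.4 ± 2.0 CPM (SD, n = 3). The log2 fold change was 3.31 ± 0.46 over Met1 (edgeR adjusted p = 0.000368). At peak_91641 (chromosome 7, 111886022 to 111887755) Met1 held 10.2, 4.44 and 2.98 CPM and Met2 37.9, 69.5 and 32.2 CPM (3.23 ± 0.49, edgeR adjusted p = 0.000661). Primary means there were 5.86 ± 3.04 and 8.08 ± 6.87 CPM. The fit of only Met1 and Met2 gave peak_91641 the same direction with an adjusted p of 0.0519.

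Between these patterns lay peak_27826 (chromosome 14, 37275379 to 37276091). It held 4.53, 1.27 and 1.79 CPM in Met1 and 43.2, 34.1 and 57.3 CPM in Met2, a difference of 4.45 ± 0.43 on the log2 scale (edgeR adjusted p = 1.01e-05). Primary2 stood at 7.79 ± 1.41 CPM, Primary3 at 25.5 ± 8.43 and Met3 at 92.1 ± 18.8 (SD, n = 3), which makes Met3 the highest group. The region opens a stretch of 3 tested regions (37275379 to 37282880) that were all called higher, with log2 fold changes from 3.11 to 4.45.

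The remaining named increases rested on lines that varied more. At peak_10972 (chromosome 11, 14011882 to 14013676) Met2 replicate 1 held 15.3 CPM and the other Met2 lines 46.6 and 76.9. At peak_103013 (chromosome 9, 61466336 to 61467200) Met2 replicate 2 was the low line, at 17.9 CPM against 74.4 and 93.0. At peak_35288 (chromosome 16, 7396141 to 7396975) Met2 replicates 1 and 2 held 20.6 and 12.1 CPM and replicate 3 held 60.8. Their log2 fold changes were 3.36, 3.33 and 3.3, with edgeR adjusted p between 0.00136 and 0.00303. None of these 3 was called by the fit of only these groups (adjusted p = 0.0618, 0.0604 and 0.0859), and peak_35288 was not called with group weights either (limma adjusted p = 0.0652). Without Met2 replicate 3 its log2 fold change was 2.37.

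**Figure D2:**
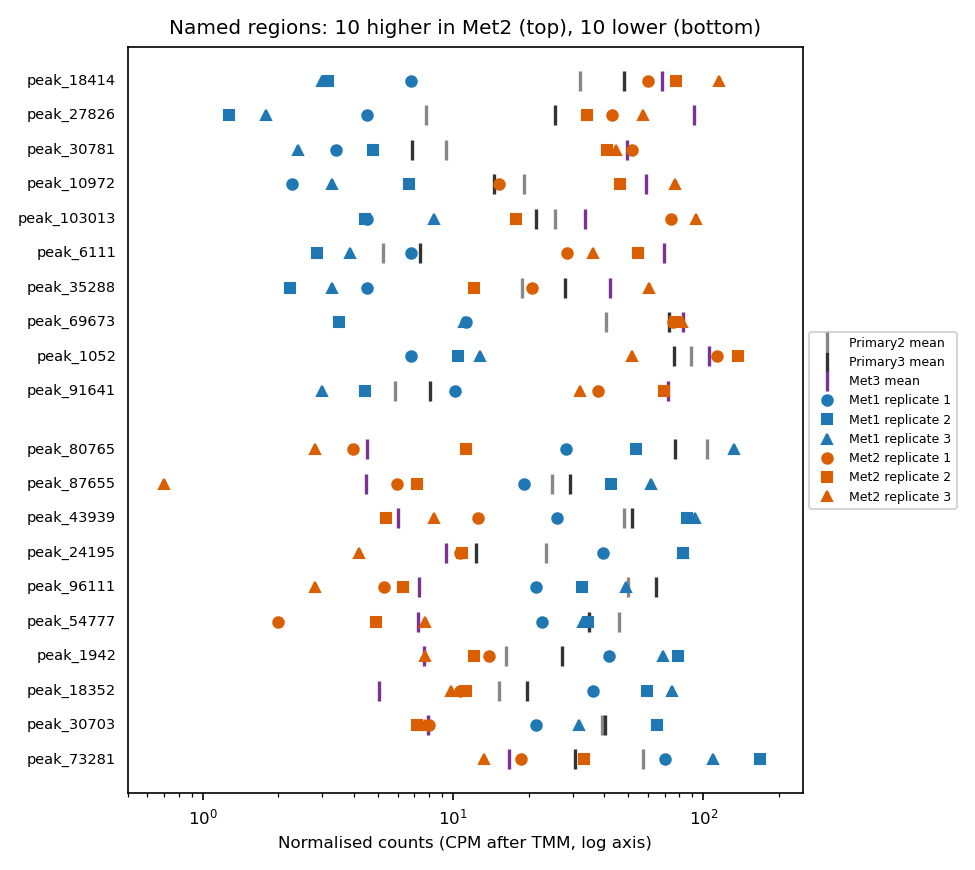
Signal in CPM (x axis, log scale) at the 20 named regions (y axis), with a point for each Met1 and Met2 line and a tick for the mean of the 3 lines of Met3, Primary2 and Primary3. The Met1 and Met2 points do not overlap at any region, by the rule that chose them, whereas the primary ticks fall near Met1 at some regions, such as peak_6111, and near Met2 at others, such as peak_1052.

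Among decreases, the largest fold was at peak_80765 (chromosome 6, 31098423 to 31099814). Met1 lines held 28.3, 53.6 and 133 CPM and Met2 lines 3.98, 11.2 and 2.8 CPM, a difference of -3.51 ± 0.50 on the log2 scale (edgeR adjusted p = 0.000584). The Met1 lines spread widely, and without Met1 replicate 3 the value was -2.71, whereas without Met2 replicate 2 it was -4.41. Primary2 held 103 ± 15.8 CPM and Primary3 77.3 ± 34.5, near the Met1 mean of 71.6 ± 54.5, and Met3 held 4.52 ± 0.838, near the Met2 mean of 6.0 ± 4.55 (SD, n = 3).

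At peak_43939 (chromosome 18, 11051592 to 11053497) the signal was 26, 86.0 and 92.5 CPM in Met1 and 12.6, 5.38 and 8.39 CPM in Met2. The log2 fold change was -3.02 ± 0.46 (edgeR adjusted p = 0.000711) and -3.73 without the first line of both groups. Primary lines ranged from 28.7 to 74.9 CPM and Met3 lines from 4.53 to 8.5 CPM, so that Met1 overlapped the primary lines and Met3 did not. The chromosome 18 medians of Met1 (-0.17 ± 0.03) and Met2 (-0.16 ± 0.01) lay within their spread of each other on the log2 scale (SD, n = 3). In the fit of only Met1 and Met2 its adjusted p was 0.0518.

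At peak_96111 (chromosome 8, 46669292 to 46670800) Met1 held 21.5, 32.7 and 49.2 CPM and Met2 5.31, 6.28 and 2.8 CPM (log2 fold change -2.83 ± 0.50, edgeR adjusted p = 0.00246). It belongs to a stretch from 46665107 to 46683798 whose 3 tested regions were all called lower, with log2 fold changes from -2.83 to -1.23. At peak_54777 (chromosome 2, 103164953 to 103166038) Met1 held 22.6, 34.6 and 33.1 CPM and Met2 1.99, 4.93 and 7.69 CPM (-2.65 ± 0.46, edgeR adjusted p = 0.00227). Both regions were open in primary lines, with means between 35.0 and 64.5 CPM. Also open in primary lines were peak_87655 (chromosome 7, 19433461 to 19434131, log2 fold change -3.12) and peak_30703 (chromosome 15, 12123441 to 12124698, -2.41). At peak_30703 the highest Met1 line was replicate 2, at 65.0 CPM against 21.5 and 31.9, the line whose chromosome 15 median was raised.

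The other 4 named decreases, and peak_85677, which the second naming rule added from the fit of only these groups, had their highest group mean in Met1. At peak_24195 (chromosome 13, 46363063 to 46364902) Met1 held 39.6, 83.1 and 83.2 CPM, Met2 10.6, 10.8 and 4.19 CPM, and primary lines 8.43 to 33.9 CPM, so that Met1 lay above all of these. Its log2 fold change was -3.00 ± 0.43 (edgeR adjusted p = 0.000557, and 0.043 in the fit of only these groups). At peak_1942 (chromosome 1, 79674375 to 79675881) Met1 held 41.9, 79.0 and 68.9 CPM and Met2 13.9, 12.1 and 7.69 CPM (-2.5 ± 0.37, edgeR adjusted p = 0.00062). At peak_18352 (chromosome 12, 8562170 to 8563466) Met1 held 36.2, 59.3 and 74.9 CPM and the Met2 lines 10.6, 11.2 and 9.79 CPM (-2.44 ± 0.43, edgeR adjusted p = 0.00232). The difference of Met2 from Primary2 was -0.53 on the log2 scale at both peak_1942 and peak_18352 (edgeR adjusted p = 0.462 and 0.544).

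At peak_73281 (chromosome 5, 64735220 to 64737165) Met1 held 70.2, 169 and 109 CPM and Met2 18.6, 33.2 and 13.3 CPM, a difference of -2.40 ± 0.37 on the log2 scale (edgeR adjusted p = 0.000711) on a chromosome whose median was higher in Met2. At peak_85677 (chromosome 6, 124633400 to 124634327) the lines of each group lay close together, with 66.8, 74.9 and 83.2 CPM in Met1 and 21.3, 16.6 and 16.8 CPM in Met2 (-2.05 ± 0.31, edgeR adjusted p = 0.000711). Over the fits that left out 1 of these 6 lines its value ran from -2.17 to -1.96. Primary2 and Primary3 held 31.0 ± 5.9 and 31.4 ± 13.7 CPM there (SD, n = 3).

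The groups that took no part in the contrast were then read at all called regions. At the 1054 higher regions the median level was 3.35 log2 CPM in Met1, 4.36 in Primary2, 4.59 in Primary3, 5.22 in Met2 and 5.44 in Met3. At the 363 lower regions it was 4.75 in Met1, 4.07 in Primary2, 3.87 in Primary3, 2.68 in Met2 and 2.8 in Met3. The choice of regions fixes the order of Met1 and Met2 and can by itself place a group outside the contrast between them. Over tested regions with a fold above 0, medians were 3.82 in Met1, 4.05 in Primary2, 3.96 in Primary3 and 4.32 in Met2 and Met3. With a fold below 0 they were 3.99, 3.79, 3.57, 3.43 and 3.44 in Met1, Primary2, Primary3, Met2 and Met3. Primary medians thus lay between Met1 and Met2 there as well as at the called regions. Nearness was measured from the midpoint of Met1 and Met2 on the log2 scale. The primary mean was nearer to Met2 at 594 (56.4%) and nearer to Met1 at 460 (43.6%) of the higher regions. At the lower regions it was nearer to Met2 at 151 (41.6%) and to Met1 at 212 (58.4%). The primary mean was above Met2 at 202 of the higher regions and below Met1 at 136. Over the 19948 tested regions with a fold above 0 it was above Met2 at 6090 and below Met1 at 8349. A call selects a wide gap between Met1 and Met2, so fewer primary means fall outside it. Of all tested regions with a fold above 0 the primary mean was nearer to Met2 at 44.2%, and of those with a fold below 0 at 54.8%. Calls made without a Met2 line were read in the same way, among regions also tested with all 15 libraries. Without Met2 replicate 1 the primary mean was nearer to Met2 at 873 of 1763 higher regions (49.5%). Without Met2 replicate 2 it was nearer at 419 of 866 (48.4%), so that which side held the larger part depended on the line. For lower regions the Met1 side held the larger part without each of the Met2 lines, with 440 of 705 (62.4%) without replicate 1.

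**Figure D3:**
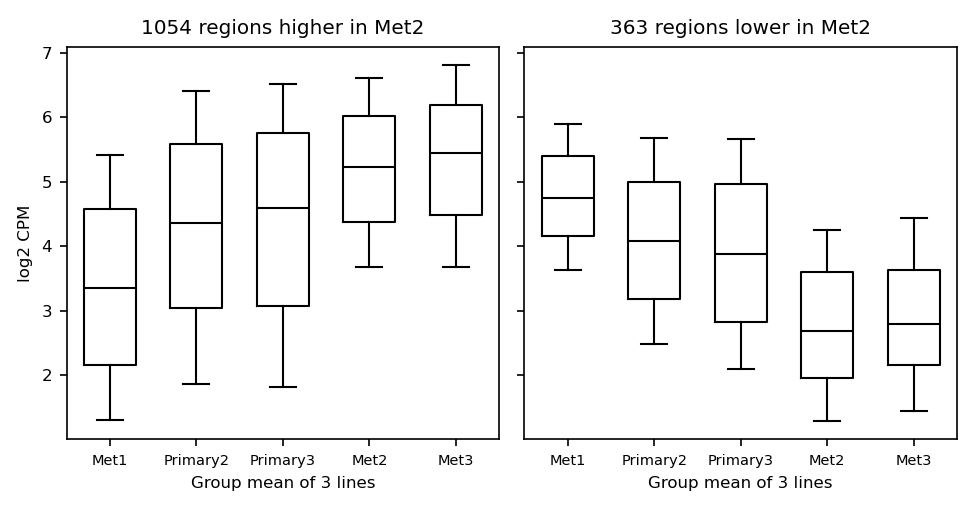
Group mean of 3 lines (log2 CPM, y axis) at the 1054 regions higher and the 363 regions lower in Met2, for each of 5 groups. Boxes span the quartiles with a line at the median and whiskers run from the 10th to the 90th percentile. Medians of Primary2 and Primary3 lie between those of Met1 and Met2, and Met3 lies beside Met2.

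Met3 and Primary3 share no library with Met1 or Met2, so their difference was read at the same regions. At the higher regions Met3 was above Primary3 at 822 of 1054 (78.0%), against 62.0% of all tested regions with a fold above 0 between Met2 and Met1. That difference was called by edgeR in the same direction at 305 (28.9%) and in the other at 22 (2.09%). Among tested regions with a fold above 0 these shares were 9.47% and 2.51%, so the share called the other way was near its background. Of all tested regions, 2252 (5.64%) were called higher in Met3. At the lower regions Met3 was below Primary3 at 312 of 363 (86.0%), against 56.7% of tested regions with a fold below 0. Of these 363, 128 (35.3%) were called lower in Met3 and 1 higher, against 6.53% and 1.81% of tested regions with a fold below 0. Of all tested regions, 1807 (4.52%) were called lower in Met3. The median log2 fold change of Met3 over Primary3 was 0.665 at the higher and -1.12 at the lower regions. A single model gave both contrasts, and lines of rounds 2 and 3 may be related by descent.

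Among the named regions, peak_30781, peak_6111 and peak_91641 were higher in Met3 than in Primary3 by 2.82 ± 0.40, 3.36 ± 0.45 and 3.74 ± 0.51 on the log2 scale (SE, edgeR adjusted p = 0.000135, 8.66e-05 and 9.95e-05). At peak_1052 and peak_69673, where primary lines were open, the difference was 0.40 ± 0.28 and 0.15 ± 0.31 (edgeR adjusted p = 0.427 and 0.82). In all, 5 of the 10 named increases and 8 of the 10 named decreases were called the same way between Met3 and Primary3. Among all regions called again each time a line was left out, these shares were 35.4% of 240 higher and 50.0% of 50 lower regions. The naming rule also asked for signal over all 15 libraries, so a decrease passed more easily where primary lines were high. The counts of named regions are therefore partly set by that rule. The decreases at peak_80765 (-4.18 ± 0.52), peak_43939 (-3.21 ± 0.48) and peak_96111 (-3.13 ± 0.47) were the largest of these, with edgeR adjusted p between 7.03e-05 and 0.000262. At peak_24195 the value was -0.35 ± 0.45 (edgeR adjusted p = 0.705), since Primary3 was low there.

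Each of the 6 lines was also read at regions that had been called without it, which shows how far a group's lines share the change. Only regions also tested with all 15 libraries enter here, so that the numbers of regions lie slightly below the counts of calls above. A line counts as on its own side where it lies nearer to the mean of the other lines of its group than to the mean of the other group. Met2 replicate 3 was on its own side at 473 of 585 higher regions (80.9%) and 108 of 136 lower regions (79.4%), against 57.0% of all tested regions. Met2 replicate 2 was on its own side at 666 of 866 higher regions (76.9%) but at only 132 of 265 lower regions (49.8%), where all tested regions gave 53.0%.

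Met2 replicate 1 lay between the groups in both directions. At the 1763 higher regions called without it, it lay on the Met2 side at 787 (44.6%), and at the 705 lower regions at 263 (37.3%), while all tested regions gave 46.8%. Its median level at these higher regions was 4.38 log2 CPM, between 3.51 in Met1 and 5.33 in the other Met2 lines. At the lower regions it stood at 4.13, against 4.71 in Met1 and 2.51 in the other Met2 lines. Regions called with this line in the fit, such as those named above, are by that choice the ones it shares with its group.

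In Met1, replicate 3 was on its own side at 332 of 393 higher (84.5%) and 78 of 81 lower regions (96.3%), and replicate 2 at 327 of 417 (78.4%) and 113 of 144 (78.5%). Replicate 1, the shallowest of the 6 libraries, was on its own side at 645 of 1023 (63.0%) and 251 of 405 (62.0%). All tested regions gave 54.1%, 54.5% and 50.4% for these lines. Replicate 1 had a median of 13 counts a region, against 40 and 43 in the other Met1 lines, and the part of depth in its lower share was not tested.

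**Figure D4:**
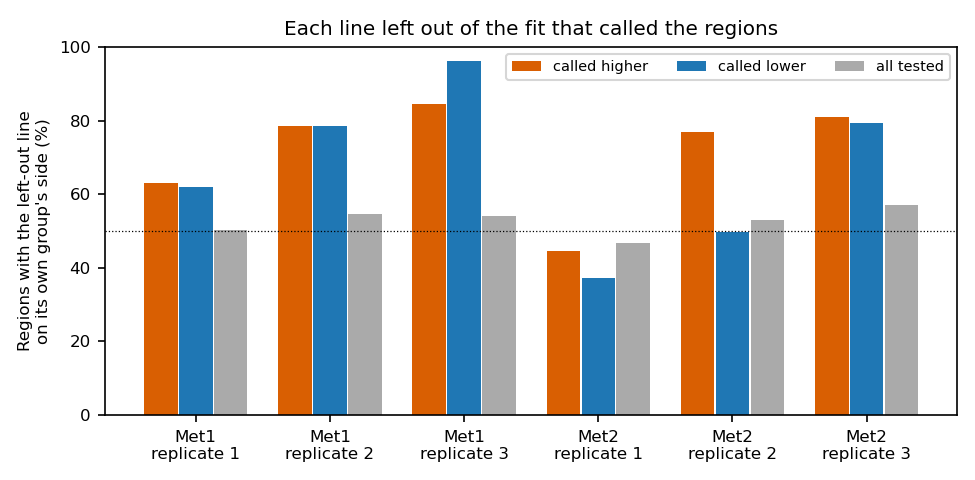
Share of regions (y axis, percent) at which each line (x axis) lies on its own group's side, for regions called higher or lower in Met2 by the fit without that line, and for all tested regions. The bars of Met2 replicate 1 (44.6% and 37.3%) lie below its grey bar (46.8%), unlike those of Met2 replicate 3 and the Met1 lines.

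Called regions differed from the rest in signal and width. The median mean signal was 4.53 log2 CPM for higher, 3.65 for lower and 3.79 for all tested regions. Tested regions were split by mean signal into 4 classes of 9988, from the weakest to the strongest. In these, 144, 197, 266 and 447 were called higher and 81, 122, 113 and 47 lower. This mean is over all 15 libraries, Met1 and Met2 included, so an increase raises a region's class and a decrease reduces it. In Met1 alone the order was reversed, with medians of 3.35 at higher, 4.75 at lower and 3.92 at all tested regions. In Primary2, outside the contrast, they were 4.36, 4.07 and 3.91, and in Primary3 4.59, 3.87 and 3.75. Lower regions were wider, with a median of 957 bp (quartiles 656 and 1370) against 773 bp (568 and 1070) for higher and 791 bp (519 and 1170) for all tested regions. Without Met2 replicate 1 the classes held 234, 331, 495 and 703 higher and 171, 229, 212 and 93 lower regions, with median widths of 766 and 950 bp. These differences were not tested.

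Chromosome 5 held more increases than any other. It held 157 of the 1054 higher regions (14.9%) on 6.34% of tested regions, and 5 of the 363 lower ones, so that 6.2% of its regions were called higher and 0.198% lower. On the other autosomes and chromosome X between 1.51% and 3.06% were called higher. The median signal of the whole chromosome differed as well. Relative to the mean of the 15 libraries it stood at 0.62, -0.15 and 0.19 on the log2 scale in Met2 replicates 1 to 3 and at -0.14, -0.19 and -0.20 in the Met1 lines. Met2 replicate 2 thus lay within the Met1 range, and 3 against 3 lines cannot go below an exact permutation p of 0.10. The mean difference was 0.40, or 0.20 without Met2 replicate 1.

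Along chromosome 5, Met2 replicate 1 lay above every Met1 line in 16 of 16 windows of 10 Mb and replicate 3 in 14, against 6 for replicate 2. In replicate 3 the windows varied from -0.13 to 0.40. Those from 90000001 onward stood at 0.24 to 0.40, those between 60000001 and 90000000 at 0.13 to 0.23 and those between 20000001 and 60000000 at -0.10 to 0.08, while the first 2 windows stood at -0.13 and 0.29. With each library's chromosome medians removed, chromosome 5 held 59 higher and 27 lower among its 2531 tested regions. The genome as a whole still held 1048 and 373 among 39952. Chromosomes 1, 2, 4 and 11, which had more tested regions than chromosome 5 (2633 to 2852), then held 69, 75, 77 and 67 higher regions. Among regions tested with all 15 libraries, leaving out Met2 replicate 1, the line with the highest median, gave 156 higher regions on chromosome 5 of 1763 (8.85%). Leaving out replicate 2 gave 207 of 866 (23.9%), and leaving out replicate 3 gave 79 of 585 (13.5%). With chromosome medians taken out, chromosome 5 no longer held more increases than any other. That removal subtracts each line's own chromosome 5 median, so a fall in the number follows in large part from the removal itself. What raised its median was not tested.

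**Figure D5:**
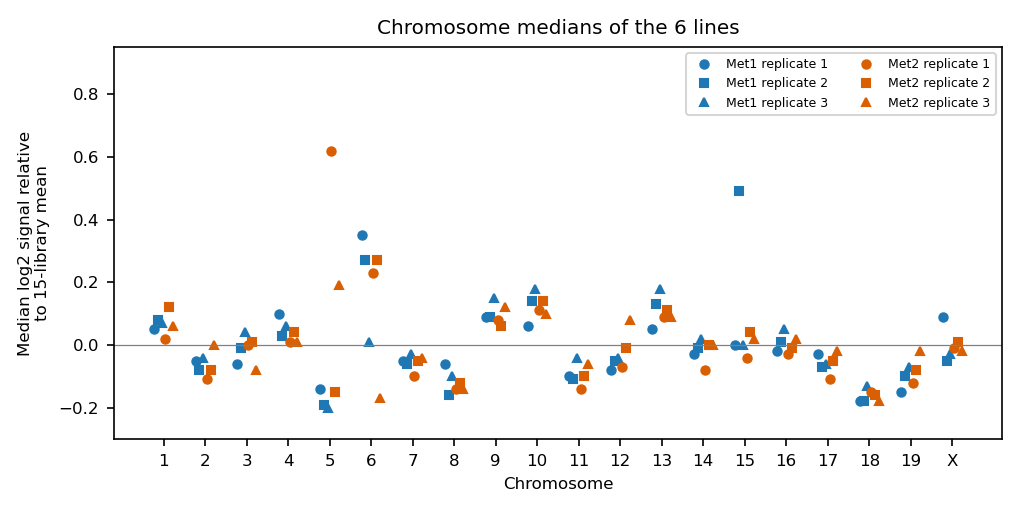
Median log2 signal of each chromosome (x axis) relative to the mean of the 15 libraries and to the library's own median (y axis), with a point for each Met1 and Met2 line. The 6 lines lie close together on most chromosomes and apart on chromosome 5 (Met2 replicate 1 at 0.62), chromosome 6 (Met2 replicate 3 at -0.17) and chromosome 15 (Met1 replicate 2 at 0.49).

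Some called regions lay in runs of neighbouring regions. How many such runs an equal number of tested regions would form was not counted, so the runs are described only. With called regions of the same direction joined over gaps of up to 50000 bp, 16 runs of 3 or more held 57 higher regions and 4 runs held 12 lower ones. The runs depended on single lines. Of these regions, 12 of the 57 and 2 of the 12 were called again each time 1 of the 6 lines was left out, and 5 of the 16 and 2 of the 4 runs held no such region. Without Met2 replicate 1 there were 62 runs of higher and 13 of lower regions, without replicate 2 there were 14 and 3, and without replicate 3 there were 0 of either. Of the 16 runs of higher regions, 8 lay on chromosome 5 (9 of 62 without Met2 replicate 1). The runs were built from calls made without removal of chromosome medians. With that removal the higher calls on chromosome 5 went from 157 to 59, and runs among these were not counted. The run with the most called regions, 6 of 7 tested, lay on chromosome 5 from 145044605 to 145076501 (median log2 fold change 1.69). Of its 6 regions, 1 was called again each time a line was left out. Its regions had mean levels of 3.86, 4.04 and 3.8 log2 CPM in Met1, 5.25, 5.5 and 5.95 in Met2, and 4.1 and 3.9 in Primary2 and Primary3. Met2 replicate 2 was high in this run and its chromosome 5 median was not. The run is made of regions called with that line in the fit, so its level there follows in part from the call. Whether the run is separate from the difference of the whole chromosome was not tested.

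Off chromosome 5, the run on chromosome 9 from 23457466 to 23533783 held 3 of 5 regions with a median of 2.99, and one on chromosome 12 from 15807306 to 15839780 held 3 of 4 with a median of 2.55. On chromosome 15 the run from 25299210 to 25344742 held 3 of 4 tested regions called lower, with a median of -2.19, and 0 of these 3 were called again each time a line was left out. Its mean levels were 3.99, 4.39 and 4.42 log2 CPM in Met1, 2.62, 2.26 and 2.07 in Met2, and 4.72 and 4.83 in Primary2 and Primary3. On chromosome 9 the run from 116096302 to 116118011 held 3 of 6 called lower (median -2.12), of which 0 were called each time, and on chromosome 7 that from 150112502 to 150155460 held 3 of 7 (-1.79).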

How the data were processed

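ATAC-seq was measured in 15 organoid lines. Values are raw counts of each library in each region, as deposited by the authors, and the region names refer to peaks of all samples together. Tools listed in the submitters' processing notes are Bowtie, Picard, SAMtools, MACS2, bedtools, and the build is mm9; no roles are given. Shifting for the transposase, duplicate removal and the handling of mitochondrial reads are not given in the sources used here. Coordinates are those in the region names. Groups and replicate numbers come from the titles, and columns were matched by library name.

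Counts were filtered with filterByExpr (minimum count 10, minimum total 15), scaled by TMM and fitted with edgeR 4.0.16 (R 4.3.3) as 5 group means over 15 libraries, with robust quasi-likelihood, and p-values were adjusted over all tested regions by the Benjamini-Hochberg method (threshold 0.05). log2 CPM used a prior count of 2. The standard error is the absolute fold change divided by the square root of F. Alternatives used limma 3.58.1 and DESeq2 1.42.0. Further values used Python 3.11.15, pandas 2.3.3 and numpy 2.4.6. The fits were tested on simulated data, in which the 15-library fit exceeded its nominal share of false calls for this contrast. The fit of only Met1 and Met2 did not. Both outcomes hold for the simulated setting only, with the same spread for all regions of a group and no line apart from its group.

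Regions were named by 2 rules: the 10 largest folds per direction among regions called with and without each of the 6 lines, and the 5 largest per direction among those also called by the fit of only Met1 and Met2, in both cases with at least the median signal and no overlap of lines. The comparison and these rules were chosen with earlier results of these data known. Planned lists of genes and marker genes, and planned motif counts, were not used here, because they need an mm9 annotation or genome.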

Additional observations from a re-analysis of the deposited data

How the results depend on the processing

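The count of called regions (1417, with 1054 higher and 363 lower) was within 1.5 times of this under total counts, both filters, removal of chromosome medians or of a trend on signal, and the replicate block, apart from the settings named next. Only Met1 and Met2 in the fit gave 58 regions (43 and 15), the 3 metastasis groups 586 (464 and 122), and a variance weight per group 747 (577 and 170). DESeq2 gave 2021, with 572 lower. Leaving out 1 line gave 475 to 2475 regions, with 393 to 1766 higher and 82 to 709 lower. The first line of both groups left out gave 3104 (2072 and 1032), and only Met1 and Met2 without the first Met2 line gave 814 (566 higher); these and the fit without the 2 shallowest libraries (1520) were chosen after seeing the data.

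The share of higher regions with Met3 above Primary3 (78.0%) was 90.7%, 84.9%, 83.0% and 85.2% with only Met1 and Met2, the metastasis groups, group weights, and only Met1 and Met2 without the first Met2 line, and 73.8% to 84.9% with 1 line left out. For lower regions (86.0%) it was 80.3% with the metastasis groups, 80.5% with both first lines left out, 76.2% with only Met1 and Met2 without the first Met2 line, and 82.6% to 91.0% with 1 line left out. The chromosome 5 difference (0.40) ran from 0.20 to 0.58.

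For the 21 named regions 588 alternative values were computed: 577 had the same direction and call, 0 reversed and 11 lost the call, 10 of them in the fit of only Met1 and Met2. They were named because they passed in these data. The cause of these shifts was not tested, beyond the spread of the lines given above.

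Replicate numbers did not pair the lines. Deviations of same-numbered Met1 and Met2 lines correlated at -0.065, 0.0211 and -0.0758, and not every line correlated best with its own number. With the replicate block 1067 regions were called, 814 higher and 253 lower. Counts per gene list were not run, for want of an mm9 annotation. Of 4 classes by signal the weakest had 2.25% of its regions called and the strongest 4.95%. Higher calls rose from 144 in the weakest to 447 in the strongest class. Lower calls numbered 81, 122, 113 and 47 from the weakest to the strongest. The mean that sets the classes includes Met1 and Met2, so an increase raises a region's class and a decrease reduces it. The part of library depth in these counts was not tested.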

Other observations

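Lines of the same group also differed along whole chromosomes other than 5. On chromosome 6 the median stood at 0.35, 0.27 and 0.01 on the log2 scale in Met1 replicates 1 to 3 and at 0.23, 0.27 and -0.17 in Met2 replicates 1 to 3. Met2 replicate 3 was the lowest of the 6 lines in 13 of 15 windows of 10 Mb there. On chromosome 15 Met1 replicate 2 stood at 0.49 and the other 5 lines between -0.04 and 0.04, and it was the highest line in 11 of 11 windows. Chromosome 15 had 41 regions called higher and 27 lower, the largest share of lower calls of any chromosome (1.47%), and 52 and 19 once chromosome medians were removed. Chromosome 6 had 44 and 30 (1.24% lower), and 58 and 27 after removal. On chromosome 5 the Met3 lines ranged from -0.15 to 0.31 and the Primary2 lines from -0.28 to 0.24, so that lines of other groups varied there as well.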
